A study of Mus musculus with 24 samples.

Results

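Mouse embryonic stem cells (mESC) with an expanded CAG repeat in Htt, the line titled Q92, were compared with mESC carrying a short repeat at the same position, the line titled Q20. The comparison rests on 4 of the 24 RNA sequencing libraries of the series, 2 of Q92 and 2 of Q20, taken by their column names, and the replicate number was kept as a block. Both lines are heterozygous Hdh CAG knock-in lines from an allelic series (Hdh is the older name of Htt), so each also keeps an Htt allele without the knock-in. The titles give the longer repeat as 92 units, while the growth protocol and the columns of the table give 89. Both lines grew untreated in the same serum medium with leukemia inhibitory factor on gelatin and irradiated mouse embryonic fibroblast feeders. The other mESC libraries, which share the estimate of spread, were wild type (WT), Htt knockout (KO), Q50 and Q111, with 2 libraries each, and neural progenitor cells (NPC) of all 6 genotypes were measured in the same way. Each repeat length is represented by 1 named line, so repeat length and any other difference between the lines cannot be told apart. The series describes its 2 libraries a group as biological samples, and the labels do not say whether they came from separate cultures, so p-values measure the spread between these libraries.

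Htt encodes huntingtin, a large scaffold protein in vesicle transport, autophagy and transcriptional control, and a long CAG repeat lengthens its polyglutamine tract, which causes Huntington's disease. mESC represent the naive pluripotent cells of the early embryo, held in self-renewal by leukemia inhibitory factor. Cultures of such cells vary in how near they stand to the naive or to the later, formative state, and lines can also differ in DNA methylation, in imprinted and germline genes and in the copy number of chromosomes.

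The 4 libraries held 58546211 to 72597072 reads counted on genes, and their 10 most abundant genes took 5.03% to 6.12% of them. The summed normalised CPM (the authors' depth-scaled read counts) of the 4 mESC markers with values was 1100 and 1170 in Q20 and 1290 and 1530 in Q92, and none of them was at 0. Feeder fibroblast markers summed to 46.3 and 65.3 CPM in Q20 and to 52.7 and 61.5 CPM in Q92, so both lines overlapped. Primitive endoderm markers summed to 9.99 and 11.1 CPM in Q20 and 10.5 and 13.4 CPM in Q92. Neural markers summed to more, 256 and 380 CPM in Q20 and 154 and 328 CPM in Q92. Trophectoderm markers summed to 13 and 7.97 CPM in Q20 and 8.59 and 4.39 CPM in Q92. Mesendoderm markers summed to 7.62 and 7.9 CPM in Q20 and 5.5 and 9.44 CPM in Q92. The lines overlapped in each of these sums.

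Few genes passed the test between Q92 and Q20, and most of them were lower in Q92. Among the larger falls were the X-linked genes Usp26, 1700013H16Rik and Rhox5, the interferon-inducible GTPase genes Gbp2b, Gbp2 and Gbp3, the ARF-like GTPase gene Arl4d, the naive-state gene Dppa3 and Igfbp3, which encodes a growth factor binding protein. The strongest rise at a multi-exon gene was that of Siah1a, a ubiquitin ligase. In all, 64 of 13916 tested genes were called (0.46%; limma, Benjamini-Hochberg adjusted p under 0.05), 18 of them higher (0.129%) and 46 lower (0.331%) in Q92, while 2238 genes (16.1%) had an unadjusted p under 0.05. All 64 moved the same way within both replicate numbers, and in 58 of them both Q92 libraries lay beyond both Q20 libraries, as they did for 30.3% of all tested genes. The calls rest on the replicate block: without it 1 gene, Rhox5, was called, while 747 had an unadjusted p under 0.05. With edgeR on the reads behind the values 36 genes were called (10 higher, 26 lower), all of them among the 64, and with DESeq2 856 (366 higher, 490 lower), which held 63 of the 64. Leaving out a library left 7 calls without Q92 replicate 1, 3 without Q92 replicate 2, 9 without Q20 replicate 1 and 13 without Q20 replicate 2, and a fit on the 4 libraries alone called 0 genes (1964 at an unadjusted p under 0.05).

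**Figure D1:**
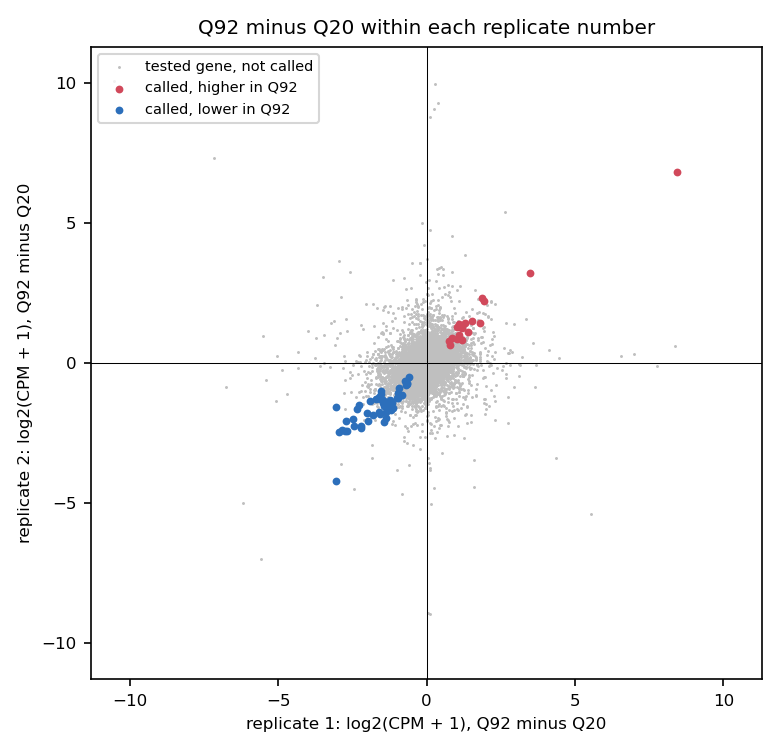
Each point is a tested gene, with the difference Q92 minus Q20 in log2(CPM + 1) within replicate number 1 on the horizontal axis and within replicate number 2 on the vertical axis. The 18 genes called higher (red) and the 46 called lower (blue) lie in the upper right and lower left, with the same sign on both axes, while the genes not called (grey) also fill the other quadrants.

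Htt itself (ENSMUSG00000029104, GRCm38) was measured at 146 and 122 CPM in Q20 and at 106 and 94.4 CPM in Q92. Both Q92 libraries lay below both Q20 libraries. The log2 change of -0.41 (SE 0.21, limma adjusted p 0.408) did not pass the test, and its adjusted p ran from 0.169 to 1 over the alternatives. The values count reads of both alleles together and do not show the repeat length.

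The Gbp genes Gbp2b, Gbp2 and Gbp3 were among the 12 largest falls. Guanylate-binding proteins are interferon-inducible GTPases that act against intracellular pathogens, and their genes Gbp3, Gbp2b and Gbp2 lie side by side on chromosome 3 between 142560026 and 142638008 (GRCm38, plus strand). They are close paralogs, so reads may be shared between them, and Gbp2 overlaps a gene on the other strand. The promoters of 5 genes called lower in Q92 (Gbp2, Gbp2b, Gbp3, H2-T22 and Tgtp2) held the pattern of GAAA, any 2 bases and GAAA, which reads TTTC, any 2 bases and TTTC on the other strand, the core of the element through which interferon-regulated transcription factors are known to act. The 5 promoters were picked for holding these letters, so that they share them is given by the choice. Each is read from RefSeq (GRCm38.p6), 5′ to 3′ on the gene's strand, and the capitals mark the match.
Gbp2 chr3:142620554-142620662 (+): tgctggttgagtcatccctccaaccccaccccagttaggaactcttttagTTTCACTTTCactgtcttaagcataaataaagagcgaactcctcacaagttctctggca
Gbp2b chr3:142594660-142594769 (+): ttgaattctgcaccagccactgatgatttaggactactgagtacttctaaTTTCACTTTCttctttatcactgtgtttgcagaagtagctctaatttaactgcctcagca
Gbp3 chr3:142559949-142560043 (+): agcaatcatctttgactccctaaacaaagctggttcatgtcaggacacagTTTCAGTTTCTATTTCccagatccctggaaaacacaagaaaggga
H2-T22 chr17:36042874-36042983 (-): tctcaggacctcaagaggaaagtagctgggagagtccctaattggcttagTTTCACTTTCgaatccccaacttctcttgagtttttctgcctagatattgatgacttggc
Tgtp2 chr11:49064223-49064332 (-): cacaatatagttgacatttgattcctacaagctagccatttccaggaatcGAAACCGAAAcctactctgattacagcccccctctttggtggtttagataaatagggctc
The match begins 59 bases before the start of Gbp2, 137 before Gbp2b, 191 before H2-T22 and 70 before Tgtp2. In Gbp3, 2 overlapping matches begin 45 and 39 bases before the start. RefSeq held promoters for 39 of the 46 genes called lower and 14 of the 18 called higher. The 250 bases before the start held the pattern on either strand in 11.1% of the 45 windows of genes called lower, in 0 of the 17 windows of genes called higher and in 2.98% of all 32851 windows. Gbp2, Gbp2b and Gbp3 are neighbouring paralogs, so their matches are not separate instances. The windows of Ifi35, Oasl2 and Tapbp, interferon-related genes called lower and described below, held no match. The pattern TTCNNNGAA, which reads the same on both strands, was in 11.1% of the windows of genes called lower and in 7.02% of all. A match describes these letters, and binding was not measured.

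Gbp2b was at 158 and 43.5 CPM in Q20 and at 19.5 and 6.96 CPM in Q92, a log2 change of -2.72 (SE 0.31, adjusted p 0.0271). Gbp2 was at 146 and 56.9 CPM in Q20 and at 19.6 and 10.1 CPM in Q92, a change of -2.61 (SE 0.31, adjusted p 0.0279). Gbp3 was at 30.1 and 20.5 CPM in Q20 and at 3.83 and 2.95 CPM in Q92, a change of -2.57 (SE 0.22, adjusted p 0.01). The Q92 values of each gene lay below both Q20 values, although replicate number 1 was the higher library in both lines, by more than 2-fold for Gbp2 and Gbp2b in Q20. The values are of whole cultures, in which fewer expressing cells and less RNA per cell cannot be told apart.

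Another 6 called genes related to interferon or antigen presentation, named after their values were seen, were lower as well. Ifi35, an interferon-induced protein, was at 17.8 and 19.7 CPM in Q20 and at 5.91 and 3.82 CPM in Q92 (log2 change -1.78, SE 0.26). Tapbp, the chaperone tapasin that loads peptides on MHC class I, was at 44.2 and 40.4 CPM in Q20 and at 18.2 and 15.6 CPM in Q92 (-1.28, SE 0.17). Parp10, an ADP-ribosyltransferase, changed by -1.66, the 2'-5'-oligoadenylate synthetase-like gene Oasl2 by -1.67, the interferon-induced GTPase gene Tgtp2 by -1.43 and the non-classical MHC gene H2-T22 by -1.41. Oasl2 and Tgtp2 were below 10 CPM in all 4 libraries. H2-M5, another non-classical MHC gene, was called higher (1.26, SE 0.19, adjusted p 0.0466), at 8.11 and 25.9 CPM in Q20 and at 23.03 and 57.3 CPM in Q92, with overlapping lines. The list of interferon response genes used here, which holds none of the 9 genes called lower or H2-M5, had 0 called members of 10 tested. Its median change was -0.36 against 0.01 over all tested genes, with 7 members negative and 3 positive (up to 1.1). Of all 13916 tested genes 7187 had a positive and 6727 a negative change, the background for the splits of each list below. Of its 4 members at an unadjusted p under 0.05 (limma), 3 were lower and 1 was higher in Q92. Among the negative members Oas1a, an antiviral synthetase, was at 15.8 and 15.6 CPM in Q20 and at 8.0 and 9.78 CPM in Q92 (-0.76, adjusted p 0.149). Bst2 and Ifitm1, membrane proteins that restrict viruses, had changes of -0.72 and -0.35 (adjusted p 0.247 and 0.742).

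All 11 called genes on the X chromosome were lower in Q92, with 0 higher, among 519 tested there, while the median change of the chromosome was -0.01. Of all 13916 tested genes 46 (0.331%) were called lower and 18 (0.129%) higher. Usp26, an X-linked deubiquitinase of the germline, was at 130 and 103 CPM in Q20 and at 14.7 and 4.60 CPM in Q92. It fell by 3.64 on the log2 scale (SE 0.26, adjusted p 0.00456), the largest fall among the called genes. The X-linked gene 1700013H16Rik was at 28.9 and 22.3 CPM in Q20 and at 4.46 and 3.86 CPM in Q92, a change of -2.36 (SE 0.16, adjusted p 0.00456). Both Q92 libraries were far below both Q20 libraries for each gene.

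Rhox5, a homeobox gene of the X-linked reproductive cluster whose promoter is silenced by DNA methylation in many tissues, was at 96.1 and 103 CPM in Q20 and at 20.2 and 19.8 CPM in Q92. Its mean of 20.0 ± 0.29 (SD, n = 2) against 99.4 ± 4.68 (SD, n = 2) gave little spread within either line and a log2 change of -2.26 (SE 0.14, adjusted p 0.00456). It kept its call in 16 of 17 alternatives; on the 4 libraries alone its adjusted p was 0.176. Of the 31 genes of the Rhox cluster 11 were tested, of which 10 had a negative and 1 (Rhox10) a positive change, with a median of -0.49, and Rhox5 was the only call. Rhox6 was at 12.0 and 12.7 CPM in Q20 and at 3.38 and 6.43 CPM in Q92 (-1.22, adjusted p 0.0945), and Rhox2a was below 4 CPM in all 4 libraries (-0.99, adjusted p 0.085). The Rhox2 and Rhox4 genes are near-identical copies, so their separate values are uncertain.

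The Xlr genes, a multi-copy X-linked family expressed in germ cells and lymphocytes, gave 4 further calls. Xlr3a was at 70.2 and 38.4 CPM in Q20 and at 21.1 and 15.0 CPM in Q92, a change of -1.50 (SE 0.17, adjusted p 0.0274). Xlr5a, Xlr5b and Xlr5c, which overlap other genes and resemble each other, were at 6.30 to 15.4 CPM in Q20 and at 2.13 to 3.80 CPM in Q92, with changes of -1.31 to -1.89. The remaining X-linked calls were Nxf3, an RNA export factor of the testis (19.8 and 14.9 against 5.82 and 5.84 CPM), Gm364, Klhl13, a ubiquitin ligase adaptor, and Fndc3c1. Apart from Rhox5, 1700013H16Rik, Usp26 and Xlr3a, these X-linked genes were named after their values were seen.

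**Figure D2:**
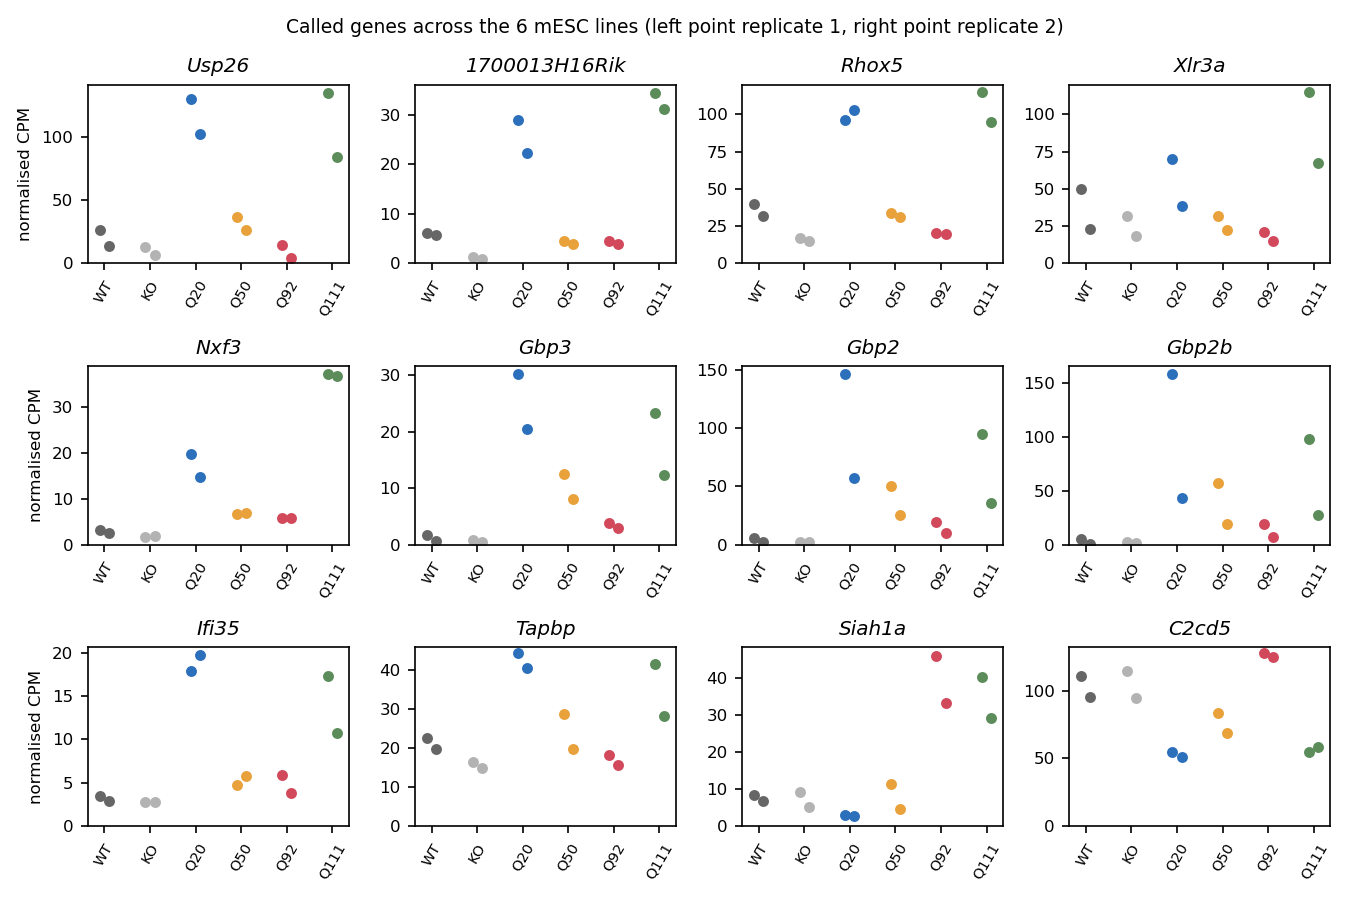
Each panel plots the normalised CPM of a called gene (vertical axis, from 0) in the 12 mESC libraries, grouped by line on the horizontal axis, with replicate 1 on the left and replicate 2 on the right. For Usp26, 1700013H16Rik and Rhox5 the Q20 and Q111 libraries lie above all others. For the Gbp genes the Q92 libraries lie below those of Q20 and Q111 and above those of WT and KO. In these genes Q50 replicate 1 lies above Q111 replicate 2. C2cd5 shows its highest values in Q92.

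Lists of germline and imprinted genes each held 1 call. Of 24 tested genes of the list of methylation-silenced germline genes, Xlr3a was called lower, 8 had positive and 16 negative changes, and the median was -0.10. Of 31 tested imprinted genes 1 was called, Usp29, a paternally expressed gene of the Peg3 domain that overlaps other genes. Usp29 was at 16.3 and 9.73 CPM in Q20 and at 2.13 and 1.69 CPM in Q92 (log2 change -2.23, SE 0.29, adjusted p 0.0328), both Q92 libraries below both Q20 libraries. Of the imprinted genes 22 had negative and 9 positive changes, with a median of -0.19.

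Dppa3, also called Stella, protects the maternal genome from demethylation after fertilisation and marks naive mESC. It was at 48.3 and 24.1 CPM in Q20 and at 6.53 and 4.91 CPM in Q92, a log2 change of -2.40 (SE 0.27, adjusted p 0.0271). Among the 18 naive pluripotency genes, all tested, Dppa3 was the only call, while 13 had a positive and 5 a negative change, with a median of 0.48. Klf4 was at 19.4 and 50.8 CPM in Q20 and at 59.6 and 122 CPM in Q92 (1.41, adjusted p 0.0904), and Tbx3 at 9.92 and 27.1 against 29.1 and 78.0 CPM (1.48, adjusted p 0.0934). Esrrb, an orphan receptor of the naive network, was at 62.6 and 95.6 CPM in Q20 and at 142 and 179 CPM in Q92 (1.04, adjusted p 0.166). Besides Dppa3 the negative changes were those of Pecam1 (-0.43, adjusted p 0.282), Fbxo15 (-0.41, adjusted p 0.215), Tcl1 (-0.41, adjusted p 0.617) and Tdh (-0.17, adjusted p 0.623). Klf4, Tbx3, Esrrb, Pecam1 and Fbxo15 had no overlap between the lines, and these genes other than Dppa3 were named after their values were seen.

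No core pluripotency gene was called among 16 tested, of which 13 had a positive change (median 0.29). Pou5f1, which encodes the factor Oct4, was at 326 and 433 CPM in Q20 and at 372 and 534 CPM in Q92 (0.25, adjusted p 0.586), and its ranges overlapped. L1td1, an RNA-binding protein of pluripotent cells, was at 327 and 459 against 497 and 743 CPM (0.65, adjusted p 0.224). Nanog (0.42, adjusted p 0.738) and Tdgf1 (1.06, adjusted p 0.591) varied more between replicates than between the lines, and their signs turned when single libraries were left out.

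Genes of the formative and primed state, into which naive cells pass, had negative changes in 11 of 12 tested members, with a median of -0.64 and 0 calls. Dnmt3b, a de novo DNA methyltransferase that rises in that state, was at 527 and 465 CPM in Q20 and at 300 and 270 CPM in Q92 (-0.80, SE 0.14, adjusted p 0.0598). Pim2, a kinase, was at 35.8 and 51.2 CPM in Q20 and at 16.8 and 23 CPM in Q92 (-1.09, SE 0.18, adjusted p 0.0592). Both had no overlap between the lines and missed the threshold narrowly. Grhl2 and Cldn6, epithelial genes, had changes of -0.54 and -0.84 (adjusted p 0.344 and 0.335).

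Of 15 genes of the DNA methylation machinery, 13 had a positive change (median 0.31), Dnmt3b being the largest exception, and 0 were called. Dnmt1, the maintenance methyltransferase, was at 377 and 471 CPM in Q20 and at 477 and 578 CPM in Q92 (0.32, adjusted p 0.15). Tet1, which oxidises methylcytosine, was at 260 and 453 against 426 and 664 CPM (0.63, adjusted p 0.287). Uhrf1 and Trim28 had changes of 0.26 and 0.21 with adjusted p of 0.487 and 0.514. DNA methylation was not measured here.

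All 10 genes of the list of cell contact and YAP targets, tested in full, had a negative change (median -0.48), with 0 calls. A negative change was also found in 6727 of all 13916 tested genes. Thbs1, the matrix protein thrombospondin, was at 260 and 247 CPM in Q20 and at 103 and 202 CPM in Q92 (-0.81, adjusted p 0.184). Amotl2 was at 132 and 83.3 against 56.1 and 78.7 CPM (-0.65, adjusted p 0.463). Ctgf and Ajuba had changes of -0.47 and -0.21 (adjusted p 0.647 and 0.81), and both turned to a change above 0 when a single library was left out. The list's median was 1.63 against WT. Feeder marker sums were 11 and 14.3 CPM in WT, 46.3 and 65.3 CPM in Q20 and 52.7 and 61.5 CPM in Q92. The feeder list itself had a median of 1.03 against WT and of -0.12 against Q20. The part of feeder cells in these changes was not tested.

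Splicing is the subject of the series, and the table holds expression per gene. Of 34 SR and hnRNP splicing factors, 27 had a positive change (median 0.19) and 1 was called, Hnrnpd. Hnrnpd, which encodes AUF1, a protein that binds AU-rich elements and directs mRNA decay, was at 45.1 and 60.7 CPM in Q20 and at 81.8 and 114 CPM in Q92, a change of 0.87 (SE 0.11, adjusted p 0.0328). It overlaps a gene on the other strand, and its Q92 mean of 97.9 CPM was close to those of WT (97.3) and Q50 (110), while Q20 was at 52.9 and Q111 at 64.5. Of 26 tested regulators of cell-type splicing and circular RNA, 16 had a positive change (median 0.15) and 0 were called. Over all 13916 tested genes 7187 had a positive change. Among these regulators Ilf2, a nuclear RNA-binding factor gene, had a change of 0.20 (adjusted p 0.519). The helicase gene Dhx9 had one of 0.37 (adjusted p 0.196) and Ptbp1, a repressor of neuronal exons, one of 0.11 (adjusted p 0.629).

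Of 28 tested huntingtin partners, 20 had a positive change (median 0.17), as had 7187 of all 13916 tested genes, and 0 were called. Rest, the repressor of neuronal genes that huntingtin holds in the cytoplasm, was at 365 and 432 CPM in Q20 and at 429 and 840 CPM in Q92 (0.60, adjusted p 0.211). Kif5b, a kinesin motor, was at 383 and 357 CPM in Q20 and at 479 and 488 CPM in Q92 (0.39, adjusted p 0.136). Dync1h1, the dynein heavy chain, had a change of -0.05 (adjusted p 0.887), whose sign depended on the libraries used.

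Among the remaining lists, Ccng1, a cyclin gene induced by p53, was called lower (437 and 350 CPM in Q20, 273 and 206 CPM in Q92, -0.72, SE 0.10, adjusted p 0.0407). Of 21 p53 targets 12 had a negative change and the median was -0.13. Lists of mesendoderm, primitive endoderm, trophectoderm, neural, feeder fibroblast, two-cell-like, ATF4 and ER stress, glycolysis and hypoxia, cholesterol synthesis, FGF-ERK, Wnt and BMP and ribosomal protein genes held 0 calls, with medians from -0.51 (trophectoderm, 6 of 6 negative) to 0.14 (glycolysis and hypoxia, 21 of 30 positive). Of 8 tested genes that report sex chromosome dosage 0 were called. The Y-linked Ddx3y was at 53.6 and 56.1 CPM in Q20 and at 81.9 and 90.0 CPM in Q92 (0.64, adjusted p 0.133), so both lines carried Y-linked transcripts, and the X-linked Kdm5c, Kdm6a, Eif2s3x and Ddx3x had changes of 0.31, 0.25, 0.52 and -0.35 (adjusted p 0.184 to 0.766).

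The other large falls were of separate kinds. Igfbp3, a secreted binding protein of insulin-like growth factors, was at 156 and 91.8 CPM in Q20 and at 17.9 and 30.0 CPM in Q92 (-2.32, SE 0.33, adjusted p 0.0429). Arl4d, an ARF-like GTPase, was at 14.1 and 16.7 CPM in Q20 and at 1.23 and 2.31 CPM in Q92 (-2.59, SE 0.39, adjusted p 0.0466). Both genes lie on chromosome 11, described below with its other genes.

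Rragd, a Rag GTPase through which amino acids reach mTORC1, was at 80.4 and 64.2 CPM in Q20 and at 16.8 and 12.6 CPM in Q92, a change of -2.23 (SE 0.24, adjusted p 0.0238). Tomm5, a small subunit of the mitochondrial import complex, was at 25.7 and 23.9 CPM in Q20 and at 4.20 and 7.00 CPM in Q92 (-2.00, SE 0.28, adjusted p 0.0394). The Q92 level of Tomm5 also lay below those of WT (20.7 CPM), Q50 (23.4) and Q111 (23.7). Named after their values were seen, Lrrk2, the kinase gene mutated in familial Parkinson's disease, was at 45.3 and 25.7 against 8.66 and 8.53 CPM (-1.87, SE 0.21) and Spg11, whose loss causes spastic paraplegia, at 154 and 112 against 78.0 and 46.7 CPM (-1.11, SE 0.13). Lama3, a laminin chain, was at 44.3 and 52.5 CPM in Q20 and at 12.1 and 13.6 CPM in Q92 (-1.83, SE 0.16, adjusted p 0.0123).

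The rises in Q92 were fewer. Siah1a (chromosome 8), a RING ubiquitin ligase with the close paralog Siah1b, was at 3.17 and 2.72 CPM in Q20 and at 46.0 and 33.2 CPM in Q92, a change of 3.35 (SE 0.25, adjusted p 0.00456) or 13.4 times the mean level. It was also at a mean of 34.7 CPM in Q111 and at 7.62 and 8.12 CPM in WT and Q50. In NPC its replicates lay at 15.9 and 52.8 CPM in Q20 and at 51.8 and 13.2 CPM in Q92. Q92 was thus the higher line in replicate 1 and the lower in replicate 2 (log2 change -0.14, SE 0.84, limma adjusted p 0.917).

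Tssc4, a chaperone in the assembly of spliceosomal particles, was at 5.09 and 6.07 CPM in Q20 and at 21.4 and 34.4 CPM in Q92 (2.10, SE 0.22, adjusted p 0.0233), and Q20 was the lowest of the 6 lines, the others standing at 24.4 to 30.5 CPM. Erdr1, a gene at the pseudoautosomal boundary that GENCODE lists under another name on chromosome Y, was at 35.4 and 22.7 CPM in Q20 and at 138 and 110 CPM in Q92 (2.08, SE 0.32, adjusted p 0.0484). Vkorc1, the vitamin K epoxide reductase that warfarin inhibits, was at 6.26 and 8.19 CPM in Q20 and at 16.9 and 23.7 CPM in Q92 (1.36, SE 0.19, adjusted p 0.0394). It overlaps a gene on its strand and was as high in Q111 (mean 23.2 CPM).

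Lonrf2, a LON-domain ubiquitin ligase gene, was at 1.28 and 1.69 CPM in Q20 and at 5.57 and 6.54 CPM in Q92 (1.51, SE 0.18, adjusted p 0.0274). Myof, the membrane repair protein myoferlin, was at 44.5 and 68.9 against 101.3 and 169 CPM (1.23, SE 0.16, adjusted p 0.0328). Mllt10, a cofactor of the histone methyltransferase Dot1l, was at 71.3 and 68.1 against 120 and 118 CPM (0.77, SE 0.10, adjusted p 0.0328), and it overlaps other genes on both strands. In each of these 3 genes the Q92 libraries lay above the Q20 libraries.

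The gene with the largest fitted rise, Hist1h2ae, is uncertain. Its deposited value was 0 in Q20 replicates 1 and 2, against 349 and 113 CPM in Q92 (adjusted p 0.0279), and its mean was 157 to 229 CPM in the other 4 lines. It is a single-exon histone gene with near-identical copies and overlaps a gene on the other strand. Other histone genes were listed at 0 in single libraries of these lines beside a high value in the other replicate, such as Hist1h1d (1188 and 0 in Q20), Hist1h2bg (804 and 0 in Q20) and Hist1h4f (890 and 0 in Q92). Of 38 histone genes of this kind Hist1h2ae was the only call, and no fold is given for it.

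**Figure D3:**
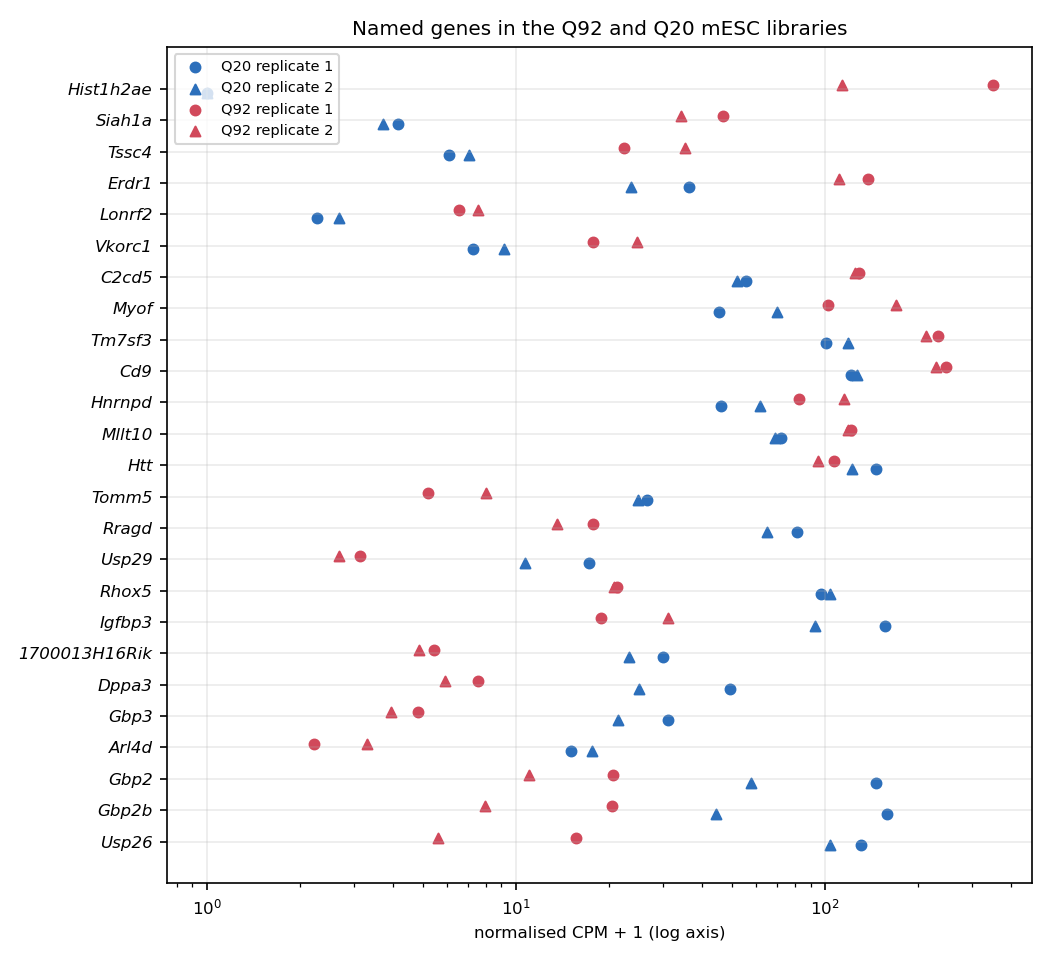
Normalised CPM + 1 on a log axis for Htt, the 12 largest rises and the 12 largest falls among called genes that averaged 5 CPM or more in the higher line and did not overlap between the lines, with circles for replicate 1 and triangles for replicate 2 of Q20 (blue) and Q92 (red). The 24 called genes were chosen among those whose lines do not overlap, and the distance between the red and blue points is widest for Hist1h2ae, with Q20 at 0.

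Chromosome 11 and distal stretches of chromosomes 6 and 17 had median changes outside the range of the rest of the genome. The chromosomes were divided into 10 groups of neighbouring genes each, after the values were seen, and the medians below are descriptions with no test. The median over the autosomes other than 6, 11 and 17 was 0.04. The highest and the lowest median of a whole autosome were those of chromosomes 6 (0.14) and 11 (-0.33), while chromosome Y (9 genes) and the mitochondrial genome (2 genes) had medians of -0.30 and -0.91.

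On chromosome 11, 968 of 1152 genes (84.0%) had a negative change, with a median of -0.33 overall and of -0.41 to -0.29 in its 10 groups. Both replicate numbers gave it (-0.35 and -0.33). Relative to the mean of the 12 libraries, the chromosome stood at 0.20 and 0.27 in Q20 and 0.19 and 0.30 in Q111, and at -0.12 and -0.07 in Q92, where it was as low as in the WT, KO and Q50 libraries (-0.23 to -0.05). Along chromosome 11, Q20 and Q111 thus stood apart from WT, and Q92 lay with it. Of its genes 0.781% were called lower, against 0.331% of all tested genes, which were 9 of the 46 genes called lower and 0 of the 18 called higher: Igfbp3, Arl4d, Ccng1, Ifi35, Tgtp2, Osm (a cytokine of the leukemia inhibitory factor family), Ddx56, Snap47 and Gm11639. Ddx56, Ccng1 and Snap47, with changes of -0.68, -0.72 and -0.74, lay nearest the median of the chromosome, and the other 6 had changes of -1.43 or lower.

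On the distal part of chromosome 6, from 97807052 to 149563329 (GRCm38; Mitf to Bicd1), 216 of 259 genes (83.4%) had a positive change with a median of 0.43, against 0.02 over the 388 genes before it. Here Q92 stood apart from every other line: its libraries were at 0.29 and 0.33 relative to the mean, and the other 10 libraries were between -0.11 and 0.01. The stretch held 4 of the 18 genes called higher, or 1.54% of its genes against 0.129% of all. C2cd5, which acts in insulin-stimulated glucose transporter traffic, was at 54.8 and 51.2 CPM in Q20 and at 128 and 124 CPM in Q92 (1.24, SE 0.13, adjusted p 0.0233). Tm7sf3, a membrane protein gene, was at 100.3 and 118 against 231 and 211 CPM (1.02, SE 0.12, adjusted p 0.0304) and Cd9, a tetraspanin of mESC and other cell surfaces, at 121 and 127 against 246 and 228 CPM (0.93, SE 0.13, adjusted p 0.0429). The fourth was Grm7, a glutamate receptor gene below 2 CPM in all 4 libraries. The means in WT, KO, Q50 and Q111 were 103, 104, 75.8 and 56.4 CPM for C2cd5. They were 158, 187, 134 and 97.8 CPM for Tm7sf3 and 204, 173, 178 and 127 CPM for Cd9. Against WT, Q92 did not pass the test for C2cd5, Tm7sf3 and Cd9 (limma adjusted p 0.32, 0.133 and 0.47), while it did for Grm7 (0.0251). Dppa3 lies in the same stretch and fell.

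On the most distal of the 10 groups of chromosome 17, from 74489493 to 94878321 (Yipf4 to Gm20939), 67 of 69 genes (97.1%) had a negative change, with a median of -0.57 against 0.03 over the 617 genes before it. The stretch stood at -0.35 and -0.47 in Q92 and at -0.21 and -0.35 in WT, and between 0.04 and 0.34 in the KO, Q20, Q50 and Q111 libraries. Of its genes 2.9% were called lower and 0% higher, against 0.331% and 0.129% of all tested genes. Its called genes were Msh6, a DNA mismatch repair gene (1226 and 1256 CPM in Q20, 819 and 881 CPM in Q92, -0.55, SE 0.08, adjusted p 0.0466), and Thada (98.0 and 144 against 61.8 and 88.2 CPM, -0.68, SE 0.10, adjusted p 0.0493), which overlaps other genes. Both changes were near the median of the stretch. The groups of neighbouring genes on the other chromosomes and the first 9 of chromosome 17, 179 in all, had medians between -0.13 and 0.21. Copy number was not measured, and its part in these shifts was not tested.

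**Figure D4:**
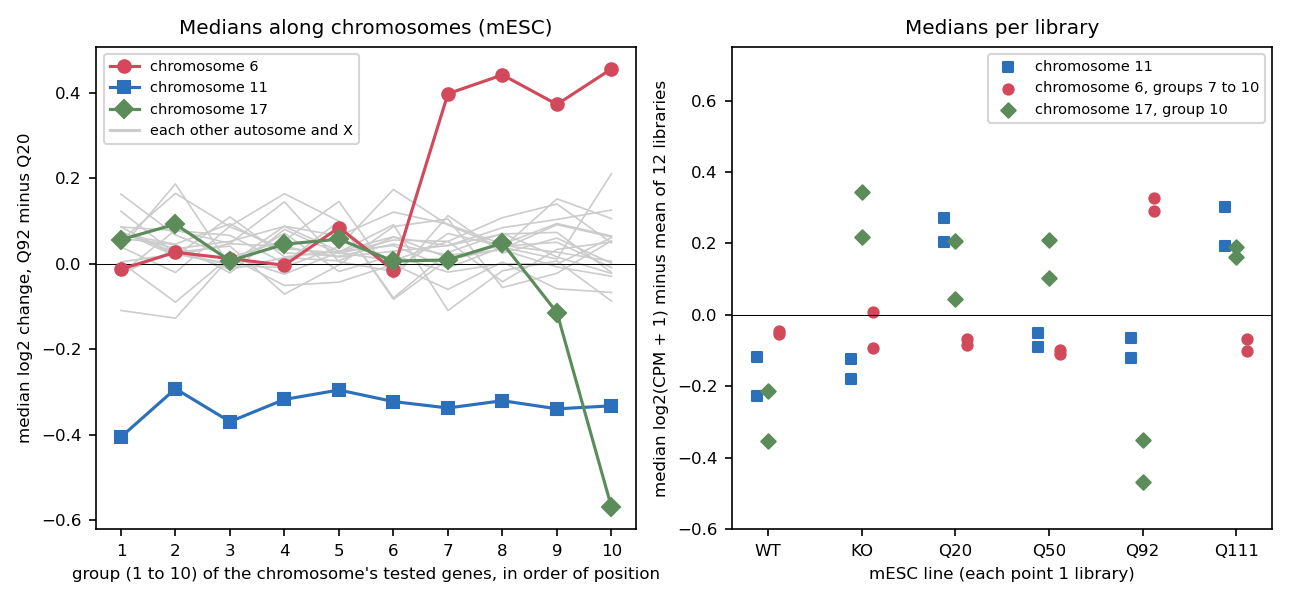
The left panel plots the median log2 change (Q92 minus Q20) in each of 10 groups of a chromosome's tested genes in order of position, with chromosomes 6 (red), 11 (blue) and 17 (green) and each other autosome and X in grey. The right panel plots, for each of the 12 mESC libraries, the median of log2(CPM + 1) minus the mean of the 12 libraries over chromosome 11 (squares), groups 7 to 10 of chromosome 6 (circles) and group 10 of chromosome 17 (diamonds): chromosome 6 is raised in both Q92 libraries alone (0.29 and 0.33).

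For most called genes the WT level lay nearer to Q92 than to Q20. The genes were picked by the difference between Q92 and Q20 in these same libraries. Q20 or Q92 standing at an end of the 6 lines thus follows in part from that choice. Shares over all tested genes are not given here, so the counts describe the called genes only. Of the 46 genes called lower in Q92, Q20 had the highest mean of the 6 lines in 28 and Q92 the lowest in 21, and the WT mean lay nearer to that of Q92 than to that of Q20 in 38. Of the 18 genes called higher, Q20 had the lowest mean in 11 and Q92 the highest in 10, and WT lay nearer to Q92 in 12. These comparisons share libraries with each other, so only their own values are given: Q92 against WT called 108 genes (0.776%), Q92 against Q50 22 (0.158%), Q92 against Q111 158 (1.14%), Q50 against Q20 137 (0.984%) and Q111 against Q20 8 (0.0575%). Q111, with the longest repeat, lay nearer to Q20 than to Q92 in 39 of the 46 genes called lower.

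Rhox5 had means of 35.7 CPM in WT, 16 in KO, 99.4 in Q20, 32.2 in Q50, 20.0 in Q92 and 105 in Q111. Q92 differed from Q111 by -2.33 (adjusted p 0.000924), from WT by -0.80 (adjusted p 0.0588) and from Q50 by -0.66 (adjusted p 0.147). Usp26 had means of 19.9 CPM in WT, 9.53 in KO, 117 in Q20, 31.7 in Q50, 9.65 in Q92 and 110 in Q111. For Usp26 the means of Q92 and KO were alike, and Q20 and Q111, with the shortest and the longest knock-in repeat, lay above the other 4 lines. With 1 line for each length, an effect of repeat length was not tested. Gbp3 had means of 1.19 CPM in WT, 0.676 in KO, 25.3 in Q20, 10.3 in Q50, 3.39 in Q92 and 17.8 in Q111. For this gene the Q92 mean was nearest those of WT and KO in CPM. Gbp2b and Gbp2 had means of 13.2 and 14.8 CPM in Q92, 3.07 and 3.87 in WT and 38.3 and 38.1 in Q50. Their log2 changes in Q92 were 1.82 and 1.73 against WT (limma adjusted p 0.0502 and 0.0576). Against Q50 they were -1.44 and -1.30 (adjusted p 0.145 and 0.179).

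D2hgdh, a mitochondrial dehydrogenase gene, was at 9.67 and 8.52 CPM in Q20 and at 4.40 and 2.98 CPM in Q92, a change of -1.12 (SE 0.17, adjusted p 0.0466), with changes of -1.35, -1.37 and -1.40 against WT, Q50 and Q111 (adjusted p 0.0251, 0.0343 and 0.0161). Its means in WT, KO, Q50 and Q111 were 10.9, 10, 11 and 11.4 CPM, all close to Q20. Spg11 had a mean of 62.4 CPM in Q92 and of 72.3 CPM in Q111, and of 133 to 170 CPM in the other 4 lines.

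NPC of the same genotypes gave a second set of libraries, measured apart. There Q92 against Q20 called 3561 of 13206 genes (27%), and of the 41 genes called in mESC that were tested in NPC, 29 had the same direction, against 57.7% of the 12321 genes tested in both cell types. Of the 28 tested genes lower in mESC, 16 were also called lower in NPC (16.4% of all genes were) and 2 higher, and of the 13 higher in mESC 3 were called higher (10.6% of all) and 2 lower. The NPC lines also differed in pluripotency genes. Pou5f1 was at 90.1 and 87.4 CPM in NPC Q20 and at 0 and 0.063 CPM in NPC Q92. Dnmt3b was at 210 and 241 against 7.64 and 6.57 CPM. The 9 core pluripotency genes tested in NPC had a median change of -3.53 with 5 calls, while the 8 naive genes tested had a median of 1.75. The part of this difference in the NPC calls was not tested. Across the 12321 genes Pearson's r of the changes was 0.13 and Spearman's rho 0.15, over genes that are not independent replicates and libraries that share the lines.

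Of the 11 X-linked genes called lower in mESC, 4 were tested in NPC and 3 of them were called lower, against 16.4% of all genes tested there. Klhl13 had a change of 0.36 (limma adjusted p 0.184), and Rhox5, Usp26 and 1700013H16Rik were not tested. Nxf3 was at 132 and 136 CPM in NPC Q20 and at 1.09 and 0.782 CPM in NPC Q92, a log2 change of -6.13, and Fndc3c1 (-3.42) and Xlr3a (-3.13) also fell. Of the 9 interferon-related genes above, which were picked by their fall in mESC, 7 were tested in NPC and 6 were called lower (16.4% of all genes were). Tapbp was at 62.9 and 52.2 CPM in NPC Q20 and at 19 and 19.1 CPM in NPC Q92 (-1.54, adjusted p 0.0085). H2-T22 was also above 5 CPM in all 4 NPC libraries. Gbp2, Gbp2b, Parp10 and Ifi35, the others called lower, were below 5 CPM in all 4 NPC libraries. Spg11 (-1.65) and D2hgdh (-1.37) were called lower in NPC as well, and Erdr1 (1.50) and Hnrnpd (0.80) higher.

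Other mESC differences were not seen in NPC or ran the other way. Igfbp3 was at 104 and 122 CPM in NPC Q20 and at 318 and 528 CPM in NPC Q92 (1.85, adjusted p 0.0365), against its fall of 2.32 on the log2 scale in mESC. The difference between the cell types was called for 16 of the 41 genes (14.6% of all genes tested in both). The distal stretch of chromosome 6 had a median change of -0.01 in NPC and that of chromosome 17 of 0.09, while chromosome 11 had a median of -0.18 in NPC, where Q20 (0.14 and 0.14) and Q111 (0.34 and 0.30) were again the high lines. C2cd5 (0.05) and Tm7sf3 (0.22) did not pass the test in NPC, and Cd9 was called lower there (-0.74).

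**Figure D5:**
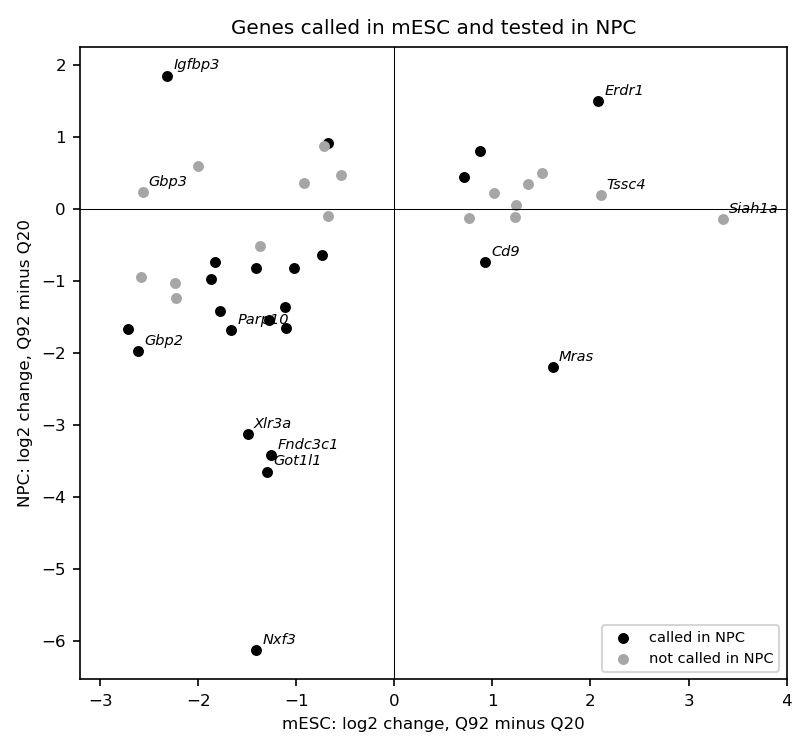
Log2 change of Q92 against Q20 in mESC (horizontal axis) and in NPC (vertical axis) for the 41 genes called in mESC and tested in NPC, in black where also called in NPC. Nxf3, Got1l1, Fndc3c1 and Xlr3a are low on both axes, and Igfbp3 and Mras have NPC changes of the opposite sign.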

How the data were processed

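RNA of mESC and NPC cultures was sequenced. The submitters' processing notes name CASAVA 1.8, STAR (version not given in the sources used here) and GRCm38.p6, and which tool counted the reads, and whether by strand, is not given in the sources used here. The authors deposited a normalised CPM signal per gene, with mESC and NPC in different tables; column totals of the mESC table ran from 948363 to 1080730, so the values are not plain CPM. All values (100%) were whole multiples, within 0.1, of the value of a read in their library, which gave back the reads (58546211 to 81502284 per mESC library). Read totals cover counting error only, beside the spread between replicates.

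Of 17501 genes, the 13916 that reached 1 CPM in 2 or more of the 12 mESC libraries were tested. Values were compared as log2(CPM + 1), a scale that understates changes of low genes, with limma 3.58.1 (R 4.3.3; variance trend, two-sided) on all 12 libraries, with 6 genotype means and the replicate number as a block. Calls needed an adjusted p (Benjamini-Hochberg) below 0.05. The NPC table was fitted in the same way, and the difference between cell types as an interaction over genes tested in both. The block was set by the choice of comparison. Same-numbered libraries deviated together: between the 15 pairs of groups the replicate differences correlated at 0.25 to 0.547 (0.488 for Q92 and Q20), and the first principal component, with 31% of the variance, separated the numbers. Where the pairing comes from is not stated in the labels.

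Alternatives changed the block, pseudocount, filter, scaling, libraries and tool (edgeR 4.0.16 and DESeq2 1.42.0 on the recovered reads). Procedures were tested on simulated data. Positions come from GENCODE M21 (GRCm38), which held 99.63% of the gene identifiers, and promoters from RefSeq.

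The comparison, its gene lists and tests were chosen with earlier results of these data known. The naming rule took Htt, the 12 largest called rises and the 12 largest called falls whose higher line averaged 5 CPM or more and whose lines did not overlap, called list members, and for described lists without calls up to 4 members with the highest mean, of which 3 are not reported here. Other genes were named after their values were seen, namely those of chromosome X and of the interferon group where said, the regions' called genes, Rhox6, Rhox2a, Klf4, Tbx3, Esrrb, the naive genes with negative changes, H2-M5, the Y-linked gene, the further histone genes, Lrrk2, Spg11, Lama3 and D2hgdh.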

Additional observations from a re-analysis of the deposited data

Results flagged for a closer look

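For 16 called genes and 6 further genes named by the naming rule, the change of Q92 against Q20 differed between NPC and mESC by a test of the difference itself (limma interaction, adjusted p under 0.05; 14.6% of all genes tested in both differed). The NPC change minus the mESC change in log2 was -3.48 (SE 0.93) for Siah1a, which rose in mESC and whose NPC replicates lay far apart. It was -1.67 (SE 0.23) for Cd9, higher in Q92 in mESC and lower in NPC, -1.19 (SE 0.24) for C2cd5 and -0.80 (SE 0.16) for Tm7sf3, all 3 from the distal stretch of chromosome 6 that was raised in mESC Q92 alone. It was -1.33 (SE 0.40) for Myof and -0.89 (SE 0.15) for Mllt10, which had NPC changes of -0.10 and -0.12. It was -1.63 (SE 0.24) for Xlr3a, -2.16 (SE 0.34) for Fndc3c1, -2.35 (SE 0.24) for Got1l1 and -4.72 (SE 0.24) for Nxf3, which fell further in NPC. It was -3.81 (SE 0.49) for Mras, higher in mESC and lower in NPC. It was 2.81 (SE 0.40) for Gbp3, at 5.79 to 7.98 CPM in all 4 NPC libraries, and 4.17 (SE 0.66) for Igfbp3 and 1.59 (SE 0.29) for Thada, both lower in mESC and higher in NPC. It was 1.28 (SE 0.23) for Klhl13, with an NPC change of 0.36, and 1.10 (SE 0.29) for Lama3. Lama3 was at 0.944 and 0.772 CPM in NPC Q20 and at 0.116 and 0.125 CPM in NPC Q92. At such levels log2(CPM + 1) understates a change, so a smaller fall in NPC is not shown. Among list members that were not called in mESC, it was -6.69 (SE 0.25) for Pou5f1, -4.01 (SE 0.23) for Dnmt3b, -3.95 (SE 0.60) for Nanog, -3.11 (SE 0.31) for Pim2, -2.04 (SE 0.33) for Thbs1 and -1.88 (SE 0.55) for Ctgf, all 6 called lower in Q92 in NPC. Without the replicate block the number of genes with such a difference fell from 1801 to 734.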

How the results depend on the processing

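The count of Q92 against Q20 in mESC (64) stayed within 1.5 times under pseudocounts of 0.1 and 0.5, no filter, a mean CPM of at least 5, median-of-ratios scaling, quantile normalization and no variance trend (46 to 70). It was 1 with no replicate block, 0 on the 4 libraries alone, 27 without both KO libraries (25 of them shared), 36 with edgeR on the recovered reads, 1 with edgeR and no replicate block (added after seeing the data) and 856 with DESeq2, where 57.2% were lower against 71.9%; the cause was not tested. Leaving out each library gave 3 to 13, in fits where the lone library of a line is assumed to vary as the other groups do. Over the 64 called genes and their alternatives, 505 results kept the call, 569 lost it and 0 reversed.

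With no replicate block, Q92 against WT called 10, Q92 against Q50 1, Q92 against Q111 11, Q50 against Q20 1, Q111 against Q20 0 (374 at an unadjusted p under 0.05; limma) and the difference between NPC and mESC 734. With a mean CPM of at least 5 the counts were 71 for Q92 against WT, 98 for Q92 against Q111, 3 for Q111 against Q20, 2140 for NPC and 848 for the difference. A pseudocount of 0.5 gave 1 for Q111 against Q20. Leaving out a library gave 11 to 25 for Q92 against WT, 2 to 6 for Q92 against Q50, 11 to 37 for Q92 against Q111, 3 to 10 for Q50 against Q20, 0 to 3 for Q111 against Q20, 1422 to 2345 in NPC and 974 to 1584 for the difference.

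Among the named genes, signs turned for 6 that were not called, with these ranges over the fits that leave out a library: Tdgf1 -0.42 (without Q20 replicate 1) to 2.53, Nanog -0.34 (without Q20 replicate 2; -0.06 without Q92 replicate 1) to 1.17, Ajuba -0.45 to 0.031 (without Q92 replicate 1), Ctgf -0.96 to 0.014 (without Q20 replicate 1), Dync1h1 -0.21 to 0.10 (without Q20 replicate 2) and Ddx3x -0.80 to 0.11 (without Q92 replicate 1). The design has 2 libraries a line and 1 read in Q92 replicate 1 was worth 0.0169 CPM.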

Other observations

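Some called genes outside the groups above had changes that are given as values only, chosen after they were seen. Ldhc, the lactate dehydrogenase of the testis, was at 7.68 and 5.87 CPM in Q20 and at 1.92 and 0.96 CPM in Q92 (log2 change -1.69, SE 0.18, limma adjusted p 0.0233). Tex21, a testis gene, was at 10.2 and 11.5 CPM in Q20 and at 3.02 and 4.00 CPM in Q92 (-1.40, SE 0.19). Pramel7, a gene of the inner cell mass, was at 3.75 and 7.79 CPM in Q20 and at 0.743 and 2.02 CPM in Q92 (-1.49, SE 0.16). Coch, which encodes the extracellular protein cochlin, was at 29.7 and 38.8 CPM in Q20 and at 12.9 and 12.2 CPM in Q92 (-1.37, SE 0.17). In each of these 4 genes both Q92 libraries lay below both Q20 libraries.

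Mras, a Ras-related GTPase, was called higher although its lines overlapped, at 4.95 and 27.4 CPM in Q20 and at 19.5 and 76.3 CPM in Q92 (1.61, SE 0.19), with the higher value in replicate 2 of both lines. In NPC it was called lower (65.8 and 61.3 CPM in Q20, 13.2 and 12.9 CPM in Q92, -2.20, SE 0.43, adjusted p 0.0096). Got1l1, a paralog of the cytosolic aspartate aminotransferase, overlapped between the lines in mESC (47.0 and 13.3 against 20.5 and 4.26 CPM, -1.30, SE 0.17), and in NPC it was at 13.5 and 12.5 CPM in Q20 and at 0.066 and 0.172 CPM in Q92.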
